A study of Mus musculus with 12 samples.

Results

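The 40 genes described here carry out mitosis: the cyclins and kinases that start it, the motors and attachments of the spindle, the checkpoint that holds anaphase back and the machinery that divides the cell. They were taken by symbol from a list, and 40 of 40 were found in each of 2 tables of 24533 genes. RNA came from bone marrow of C57BL/6 mice, in 12 libraries that form 4 groups of 3. LSK cells (the marrow fraction that lacks lineage markers, carries Sca-1 and c-Kit and holds the stem cells) were labelled U2af1KO or WT, and so were lineage-negative (LinNeg) cells, the wider pool of progenitors. U2af1 encodes the smaller U2AF protein, which contacts the 3' splice site when introns are removed. Cells were depleted of lineage-positive cells on magnetic columns and flow-sorted before ribosomal RNA was removed. Both LSK groups also carry the label BMT, which is not spelled out. The labels name no allele, Cre driver, inducing agent, age or sex, and they do not say whether replicates were separate animals, so p-values reflect only how these libraries varied among themselves, which may be technical variation.

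For each gene the tables give a mean of normalized counts over 6 libraries, a log2 fold change of KO over WT with its standard error (SE), and an adjusted p. No single library's values were used here, and depth is unknown. Means under each genotype label were derived from the overall mean and the fold change. The 2 tables share no library and were normalized separately, so levels are compared within a population only. A gene is called, and is said to rise or fall, when its adjusted p is under 0.05.

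A cell enters mitosis when cyclin B binds CDK1 and CDC25 phosphatases remove the inhibitory phosphates from the kinase. Polo and Aurora kinases then mature the centrosomes and build the spindle, kinetochores tie the chromosomes to it, and the checkpoint blocks CDC20 until every chromosome is attached. The anaphase-promoting complex then has securin and cyclin B destroyed, separase opens cohesin, and the central spindle places the cleavage furrow. Most of these transcripts peak in G2 and M phase, and in marrow they mark dividing progenitors, whereas the most primitive stem cells rest outside the cycle. Fewer cells of a type and less RNA per cell cannot be told apart in bulk samples such as these.

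Mitosis genes were mostly higher in KO than in WT in LSK cells and were mixed in LinNeg cells. In LSK, 33 of 40 members rose, 3 fell and 4 did not pass in the authors' deposited table; 12 of the rises were of at least 0.5 on the log2 scale. Of all genes tested there, 32.4% were called higher and 29.2% lower. Restricted to means of 100 or more, a limit that every member passed, the shares were 40.8% and 36.4%. The median log2 fold change of the members was 0.39 in LSK, beside 0.04 over all tested genes of the authors' deposited table. In LinNeg, 3 of 40 members rose, 8 fell and 29 did not pass, where 22.1% of all tested genes were called higher and 19.3% lower, or 24.9% and 26.8% of those with means of 100 or more. The LinNeg median was -0.01 over the members and 0.16 over all tested genes in the authors' deposited table. Measured from that median gene, the split in LinNeg became 1 higher and 12 lower. Measured from the median over genes with means of 100 or more, which was -0.02, it was again 3 and 8. Every member had an adjusted p in both tables.

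Most changes were under 2-fold. None of the 40 members was called with at least a 2-fold change in LSK and 1 was in LinNeg, beside 22.6% of all tested genes in LSK and 23.6% in LinNeg. Summed over the members, the derived means came to 221616 normalized counts in KO and 177125 in WT in LSK, a ratio of 1.25. The LinNeg sums were 204362 in KO and 208872 in WT, a ratio of 0.978. The SE of a member ran from 0.049 to 0.13 with a median of 0.065 in LSK, and from 0.12 to 0.25 with a median of 0.19 in LinNeg, in the authors' deposited tables. The 95% interval of a typical LinNeg value therefore reached 0.37 to either side, nearly as far as the median rise in LSK, so a member that did not pass in LinNeg is not shown to be equal under both labels. At an unadjusted p under 0.05, 36 members passed in LSK and 13 in LinNeg.

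**Figure D1:**
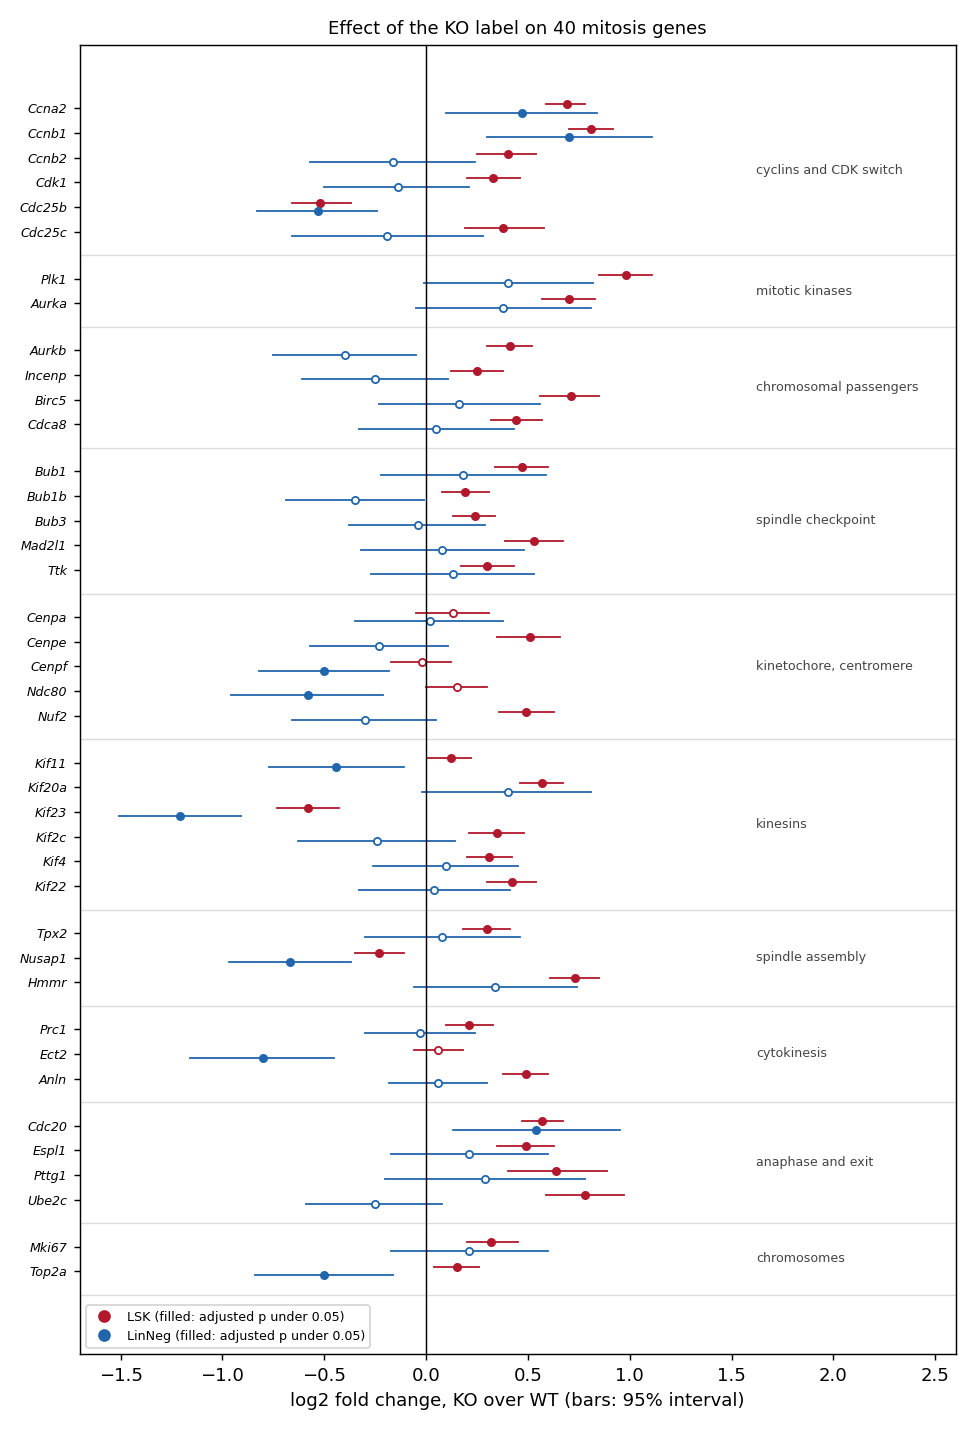
Log2 fold change of KO over WT for each of the 40 mitosis genes, grouped by role, in LSK and LinNeg, with 95% intervals; filled points are called at an adjusted p under 0.05. Most LSK points lie above 0 with narrow intervals, and the LinNeg points lie lower for 40 of 40 genes, with wider intervals.

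U2af1 itself had derived means of 4054 normalized counts in KO and 2650 in WT in LSK, and of 3205 in KO and 2037 in WT in LinNeg. It was thus higher under the KO label, by 0.61 (SE 0.058, adjusted p = 1.72e-25) in LSK and by 0.65 (SE 0.19, adjusted p = 0.00293) in LinNeg in the authors' deposited tables. The value covers the gene as a whole and the labels name no allele. Why it was higher, and whether U2af1 was lost in these cells, was not tested. Of 6 genes that define LSK cells and their subsets, 5 fell in LSK: Kit had 14587 in KO and 28724 in WT, and Ly6a, which encodes Sca-1, had 335 in KO and 593 in WT. The Y-linked Ddx3y had 4.99 in KO and 2949 in WT in LSK and 1255 in KO and 2165 in WT in LinNeg. Its log2 fold change in LinNeg, -0.79 (SE 1.6, adjusted p = 0.739 in the authors' deposited table), was not called. Xist, which is transcribed from the inactive X, had 62360 in KO and 347 in WT in LSK, and 41468 in KO and 40 in WT in LinNeg. Xist differed along the genotype label in both populations and Ddx3y in LSK, so their part cannot be told apart from that of the label. The part of the other differences in the values of the mitosis genes was not tested.

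Promoters of mitosis genes are known for the CHR element, read by the DREAM and MuvB complexes, and for CCAAT boxes bound by NF-Y, which together restrict transcription to late in the cycle. RefSeq promoters on build GRCm38.p6, each from 250 bases before to 50 bases after a start site, matched 34 of the 40 members with 37 promoters. The CHR was searched as TTTGAA or TTCGAA and the box as CCAAT, on both strands, and boxes on opposite strands can overlap. A CHR was present in 81.1% of the members' promoters and 19.2% of all 32851 promoters of that length. A CCAAT box was present in 78.4% of the members' promoters and 37.4% of all promoters, and at least 2 boxes in 54.1% and 11.7%. Both motifs occurred together in 73% of the members' promoters and in 7.52% of all promoters. The median position was -17 for the CHR matches and -71 for the boxes, counted from the start site. In the window from -60 to 50, which was chosen after the positions were seen, 73% of the members' promoters and 5.9% of all promoters held a CHR. A match is a description of letters and not a measured site.

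**Figure D2:**
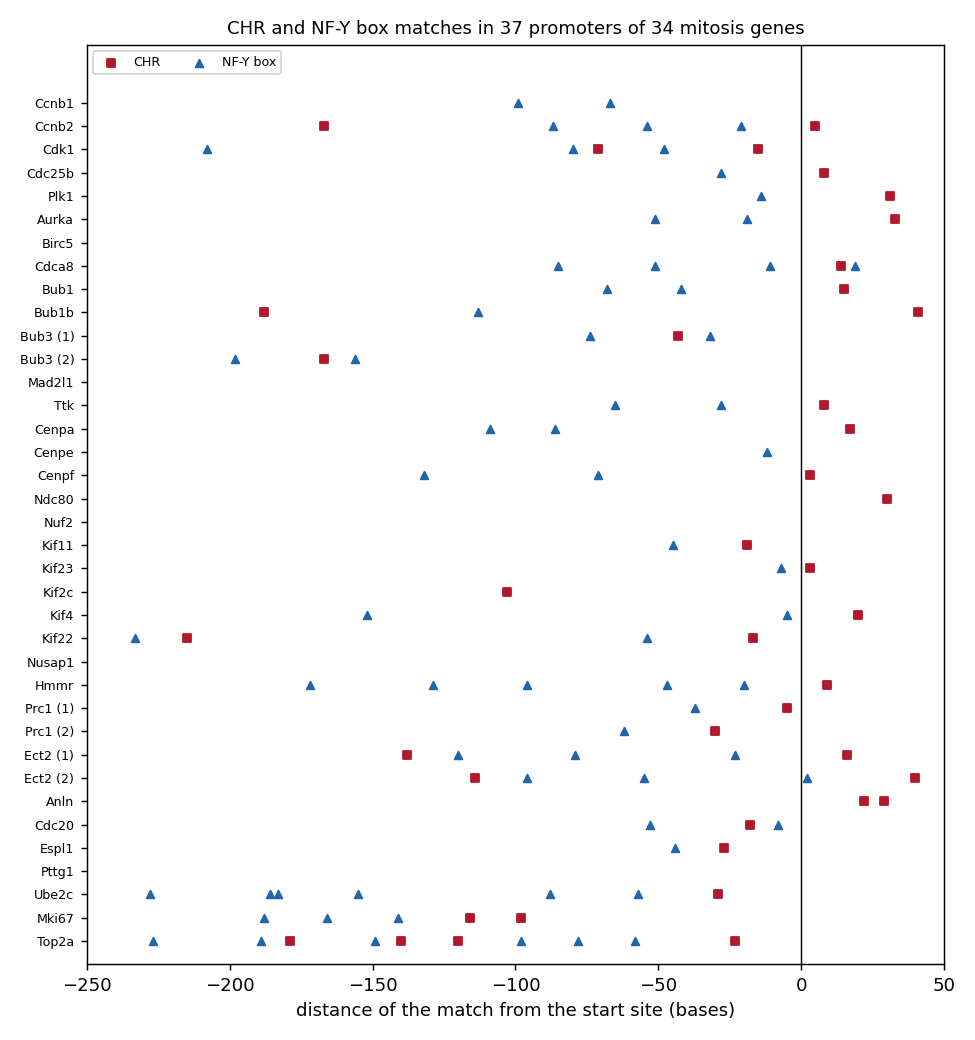
Position of each CHR match and each CCAAT match relative to the start site, in bases, in the 37 promoters of 34 mitosis genes. CHR matches gather around the start site and boxes just upstream of it, and the promoters of Birc5, Mad2l1, Nuf2, Nusap1 and Pttg1 hold neither.

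Promoters of 5 members are printed, 5' to 3' on the gene's strand with CHR and CCAAT matches in capitals. They were chosen among members with a CHR match because the main patterns turn on these genes. Plk1 had the highest fold change in LSK (chr7:122159185-122159484, plus strand). Cdc20 rose in both populations (chr4:118437294-118437593, minus strand), and Ube2c differed most between them (chr2:164769679-164769978, plus strand). Kif23 (chr9:61946750-61947049, minus strand) and Cdc25b (chr2:131186698-131186997, plus strand) fell in both.
Plk1: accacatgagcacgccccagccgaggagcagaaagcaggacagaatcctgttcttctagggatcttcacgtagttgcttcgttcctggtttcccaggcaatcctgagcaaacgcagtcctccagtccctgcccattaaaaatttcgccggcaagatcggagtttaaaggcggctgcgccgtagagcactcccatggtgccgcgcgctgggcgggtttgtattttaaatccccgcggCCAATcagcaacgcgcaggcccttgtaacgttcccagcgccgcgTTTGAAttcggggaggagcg
Cdc20: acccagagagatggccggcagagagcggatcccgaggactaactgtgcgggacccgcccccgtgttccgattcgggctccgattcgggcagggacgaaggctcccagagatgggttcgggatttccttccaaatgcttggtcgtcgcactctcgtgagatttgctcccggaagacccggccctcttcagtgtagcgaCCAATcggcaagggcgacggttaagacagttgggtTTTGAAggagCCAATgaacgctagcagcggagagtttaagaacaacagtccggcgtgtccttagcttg
Ube2c: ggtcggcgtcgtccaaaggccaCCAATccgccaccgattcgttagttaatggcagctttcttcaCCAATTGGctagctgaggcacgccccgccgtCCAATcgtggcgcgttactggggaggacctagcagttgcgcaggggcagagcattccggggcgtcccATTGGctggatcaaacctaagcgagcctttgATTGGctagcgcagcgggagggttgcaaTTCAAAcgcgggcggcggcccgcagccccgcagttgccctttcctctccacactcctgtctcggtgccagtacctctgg
Kif23: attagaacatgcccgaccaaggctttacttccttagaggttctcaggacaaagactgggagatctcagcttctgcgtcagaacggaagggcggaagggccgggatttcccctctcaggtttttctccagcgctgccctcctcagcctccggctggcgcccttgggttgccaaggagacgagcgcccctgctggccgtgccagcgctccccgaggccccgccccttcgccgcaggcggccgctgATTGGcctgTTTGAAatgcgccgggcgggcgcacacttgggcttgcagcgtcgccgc
Cdc25b: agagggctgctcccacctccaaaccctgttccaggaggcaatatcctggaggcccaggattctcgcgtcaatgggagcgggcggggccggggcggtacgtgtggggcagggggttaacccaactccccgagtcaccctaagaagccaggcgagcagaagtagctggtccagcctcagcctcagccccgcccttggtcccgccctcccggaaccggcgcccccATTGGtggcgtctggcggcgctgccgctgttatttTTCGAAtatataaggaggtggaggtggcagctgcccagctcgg
Each of these promoters holds 1 CHR match, and holding a match was a condition of the choice. Ccnb1, which also rose in both populations, has 2 boxes and no CHR. Ube2c has 6 boxes, Cdc20 has 2, and Plk1, Kif23 and Cdc25b have 1 each. The CHR begins at 31 in Plk1, at 3 in Kif23 and at 8 in Cdc25b, downstream of the start site, and at -18 in Cdc20 and -29 in Ube2c. Nusap1, the other member that fell in both, has neither motif in this window, and neither does Birc5, which rose in LSK.

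Counts by role stand beside the shares of all genes with means of 100 or more. Those shares were 40.8% called higher and 36.4% lower in LSK, and 24.9% and 26.8% in LinNeg. Of 6 genes for the switch into mitosis 5 rose in LSK, the 3 cyclins among them. In LinNeg 2 cyclins rose, while the phosphatase gene Cdc25b fell in both populations. Ccnb1, cyclin B1, which activates CDK1 at mitotic entry, had 6583 in KO and 3753 in WT in LSK, and 5796 in KO and 3560 in WT in LinNeg. It rose by 0.81 (SE 0.056, adjusted p = 1.19e-46) in LSK and by 0.70 (SE 0.21, adjusted p = 0.00241) in LinNeg in the authors' deposited tables, and it was the member that stayed called higher in LinNeg when values were measured from the median gene. Ccna2, cyclin A2, which works from S phase into early mitosis, had 9614 in KO and 5974 in WT in LSK, and 10019 in KO and 7225 in WT in LinNeg. Its log2 fold changes in the authors' deposited tables were 0.69 (adjusted p = 3.30e-44) in LSK and 0.47 (adjusted p = 0.0317) in LinNeg. The LinNeg call of Ccna2 was lost against the median gene (0.32, adjusted p = 0.172).

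Cdc25b, the phosphatase that first activates CDK1 at the centrosome, fell in both populations, with 1320 in KO and 1891 in WT in LSK, and 2170 in KO and 3143 in WT in LinNeg. It stood at -0.52 (SE 0.074, adjusted p = 7.56e-12) in LSK and at -0.53 (SE 0.15, adjusted p = 0.00166) in LinNeg in the authors' deposited tables. The related phosphatase gene Cdc25c rose in LSK, at 0.38, and had -0.19 in LinNeg without a call in the authors' deposited tables. The second B-type cyclin, Ccnb2, rose by 0.40 in LSK, and Cdk1, the kinase itself, rose by 0.33, according to the authors' deposited table. In LinNeg neither passed, Ccnb2 being at -0.16 and Cdk1 at -0.14 in the authors' deposited table.

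Both kinases of the spindle poles rose in LSK. Plk1, the Polo-like kinase of centrosomes, kinetochores and the midzone, had 4215 in KO and 2136 in WT in LSK, and 4209 in KO and 3183 in WT in LinNeg. Its LSK value of 0.98 (SE 0.068, adjusted p = 7.64e-46), a 1.97-fold change, was the highest of the 40 members in the authors' deposited table. The LinNeg value of Plk1 was 0.40 (SE 0.21, adjusted p = 0.118) in the authors' deposited table and did not pass. Aurka, the Aurora kinase of the poles, had 2642 in KO and 1627 in WT in LSK, and 2760 in KO and 2121 in WT in LinNeg. It rose by 0.70 (adjusted p = 1.44e-25) in LSK and had 0.38 (adjusted p = 0.156) in LinNeg in the authors' deposited tables.

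The chromosomal passenger complex, which corrects faulty attachments of chromosomes, had 4 of 4 genes higher in LSK and none called in LinNeg. Birc5, which encodes survivin, had 2374 in KO and 1454 in WT in LSK, and 2870 in KO and 2565 in WT in LinNeg. Its values in the authors' deposited tables were 0.71 (SE 0.073, adjusted p = 4.34e-21) in LSK and 0.16 (adjusted p = 0.554) in LinNeg. Aurkb, the kinase of the complex, had 4334 in KO and 3271 in WT in LSK, and 2645 in KO and 3492 in WT in LinNeg. It rose by 0.41 (adjusted p = 1.44e-12) in LSK and stood at -0.40 (SE 0.18, adjusted p = 0.0569) in LinNeg in the authors' deposited tables. Against the median gene of LinNeg, Aurkb was called lower at -0.56 (adjusted p = 0.00576). The scaffold gene Incenp rose by 0.25 and Cdca8, which encodes borealin, by 0.44 in LSK, and they had -0.25 and 0.05 in LinNeg, all from the authors' deposited tables. The sign of Cdca8 in LinNeg turned to -0.11 against the median gene.

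Spindle checkpoint genes rose in LSK, 5 of 5, and none was called in LinNeg. Mad2l1, whose product captures CDC20, had 3423 in KO and 2372 in WT in LSK, and 2646 in KO and 2508 in WT in LinNeg. It was at 0.53 (SE 0.071, adjusted p = 4.33e-13) in LSK and 0.08 (adjusted p = 0.796) in LinNeg in the authors' deposited tables. The kinetochore kinase Bub1 rose by 0.47 in LSK, the checkpoint kinase Ttk by 0.30, the adaptor Bub3 by 0.24 and the CDC20 inhibitor Bub1b by 0.19, according to the authors' deposited table. In LinNeg the authors' deposited table gave 0.18 for Bub1, 0.13 for Ttk, -0.04 for Bub3 and -0.35 for Bub1b. Bub1b, with 4019 in KO and 5134 in WT (SE 0.17, adjusted p = 0.0902 in the authors' deposited table), had the smallest LinNeg p of these genes.

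At the kinetochore and centromere, 2 of 5 genes rose in LSK and 2 of 5 fell in LinNeg. The 2 rises in LSK lie near the 40.8% of genes with means of 100 or more called higher there. Nuf2 and Ndc80 encode partners in the complex that grips microtubules. Nuf2 had 2580 in KO and 1833 in WT in LSK, and 1836 in KO and 2262 in WT in LinNeg. Its values were 0.49 (SE 0.070, adjusted p = 8.39e-12) in LSK and -0.30 (adjusted p = 0.177) in LinNeg in the authors' deposited tables. Ndc80 had 1463 in KO and 1319 in WT in LSK, and 1077 in KO and 1611 in WT in LinNeg. It stood at 0.15 (adjusted p = 0.0807) in LSK and fell in LinNeg, at -0.58 (SE 0.19, adjusted p = 0.00793), in the authors' deposited tables. Both partners had the higher value in LSK.

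Cenpf, a large protein of the outer kinetochore, had 5052 in KO and 5140 in WT in LSK, and 4502 in KO and 6362 in WT in LinNeg. It was at -0.02 (adjusted p = 0.786) in LSK and fell in LinNeg, at -0.50 (adjusted p = 0.00824), in the authors' deposited tables. The kinesin gene Cenpe, whose product carries chromosomes to the spindle equator, rose by 0.51 in LSK and had -0.23 in LinNeg without a call in the authors' deposited tables. Cenpa, the histone variant that marks centromeres, passed in neither population, at 0.13 in LSK and 0.02 in LinNeg in the authors' deposited tables.

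Among 6 kinesin genes 5 rose and 1 fell in LSK, and 2 fell in LinNeg. The 2 falls in LinNeg lie near the 26.8% of genes with means of 100 or more called lower there. KIF23 pairs with RACGAP1 in centralspindlin, which bundles the central spindle and recruits ECT2 for cytokinesis. Kif23 had 2079 in KO and 3108 in WT in LSK, and 2408 in KO and 5571 in WT in LinNeg. It had the lowest log2 fold change of the 40 members in both of the authors' deposited tables, -0.58 (SE 0.078, adjusted p = 4.42e-13) in LSK and -1.21 (SE 0.15, adjusted p = 4.02e-14) in LinNeg. These are ratios of 0.669 and 0.432, and the second is the 1 member past 2-fold.

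Kif20a, a motor of the same midzone, had 4819 in KO and 3249 in WT in LSK, and 4514 in KO and 3423 in WT in LinNeg. It rose by 0.57 (SE 0.053, adjusted p = 1.14e-25) in LSK and had 0.40 (adjusted p = 0.12) in LinNeg in the authors' deposited tables. Kif11, the motor that pushes the poles apart, had 8761 in KO and 8088 in WT in LSK, and 6150 in KO and 8348 in WT in LinNeg. It was called in opposite directions, at 0.12 (adjusted p = 0.0411) in LSK and -0.44 (adjusted p = 0.0237) in LinNeg in the authors' deposited tables, and the LSK call was lost against the median gene (0.07, adjusted p = 0.213). Kif22, a chromokinesin, rose by 0.42 in LSK, the microtubule depolymerase gene Kif2c by 0.35 and Kif4, a motor of chromosome arms, by 0.31, in the authors' deposited table. None of these 3 passed in LinNeg, where the authors' deposited table gave 0.04 for Kif22, -0.24 for Kif2c and 0.10 for Kif4. Against the median gene of LinNeg, Kif22 stood at -0.12 and Kif4 at -0.06. Kif4 lies on the X chromosome, and the groups differ in Xist as given above.

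Of 3 spindle assembly genes 2 rose and 1 fell in LSK, and 1 fell in LinNeg. Hmmr, whose product focuses microtubules at the poles, had 4487 in KO and 2704 in WT in LSK, and 3862 in KO and 3048 in WT in LinNeg. It was at 0.73 (SE 0.061, adjusted p = 1.62e-32) in LSK and 0.34 (adjusted p = 0.179) in LinNeg in the authors' deposited tables. Nusap1, which bundles microtubules near chromosomes, had 2948 in KO and 3464 in WT in LSK, and 2293 in KO and 3654 in WT in LinNeg. It fell in both, at -0.23 (adjusted p = 0.000392) in LSK and -0.67 (SE 0.15, adjusted p = 6.58e-05) in LinNeg in the authors' deposited tables. The spindle assembly factor gene Tpx2, which activates Aurora A, rose by 0.30 in LSK and had 0.08 in LinNeg in the authors' deposited tables, or -0.08 in LinNeg against the median gene.

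Of 3 cytokinesis genes 2 rose and 0 fell in LSK, and 0 rose and 1 fell in LinNeg. Ect2, the exchange factor that turns on RhoA at the furrow, had 3810 in KO and 3666 in WT in LSK, and 2068 in KO and 3609 in WT in LinNeg. It was at 0.06 (adjusted p = 0.44) in LSK and fell in LinNeg, at -0.80 (SE 0.18, adjusted p = 6.18e-05), in the authors' deposited tables. Anln, which encodes the furrow scaffold anillin, had 4664 in KO and 3317 in WT in LSK, and 3700 in KO and 3558 in WT in LinNeg. Its values in the authors' deposited tables were 0.49 (SE 0.058, adjusted p = 7.16e-17) in LSK and 0.06 (adjusted p = 0.75) in LinNeg, with -0.10 in LinNeg against the median gene. The midzone bundler gene Prc1 rose by 0.21 in LSK and had -0.03 in LinNeg in the authors' deposited tables.

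Genes of anaphase and mitotic exit rose in LSK, 4 of 4, and 1 of 4 rose in LinNeg. The 1 rise in LinNeg lies near the 24.9% of genes with means of 100 or more called higher there. Cdc20, the activator of the anaphase-promoting complex, had 5301 in KO and 3568 in WT in LSK, and 5708 in KO and 3922 in WT in LinNeg. It rose by 0.57 (SE 0.051, adjusted p = 8.75e-28) in LSK and by 0.54 (SE 0.21, adjusted p = 0.0249) in LinNeg in the authors' deposited tables; the LinNeg call was lost against the median gene (0.39, adjusted p = 0.126). Ube2c, the ubiquitin-conjugating enzyme of that complex, had 1787 in KO and 1041 in WT in LSK, and 2695 in KO and 3211 in WT in LinNeg. It was at 0.78 (SE 0.095, adjusted p = 1.29e-15) in LSK and -0.25 (SE 0.17, adjusted p = 0.239) in LinNeg in the authors' deposited tables. Pttg1, which encodes securin, rose by 0.64 in LSK and Espl1, which encodes separase, by 0.49, in the authors' deposited table. In LinNeg they had 0.29 and 0.21 without a call in the authors' deposited table. Pttg1 had the lowest mean of the 40 members in both tables, 380 in LSK and 396 in LinNeg, and the widest SE.

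Mki67 and Top2a, which coat and untangle mitotic chromosomes and are widely used as proliferation markers, both rose in LSK, and Top2a fell in LinNeg. Mki67 had 42168 in KO and 33737 in WT in LSK, and 55462 in KO and 47809 in WT in LinNeg. It rose by 0.32 (SE 0.064, adjusted p = 1.65e-06) in LSK and had 0.21 (adjusted p = 0.405) in LinNeg in the authors' deposited tables. Top2a had 29306 in KO and 26410 in WT in LSK, and 17636 in KO and 24930 in WT in LinNeg. It was called in opposite directions, at 0.15 (adjusted p = 0.0119) in LSK and -0.50 (SE 0.18, adjusted p = 0.0132) in LinNeg in the authors' deposited tables, and the LSK call was lost against the median gene (0.11, adjusted p = 0.0786).

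**Figure D3:**
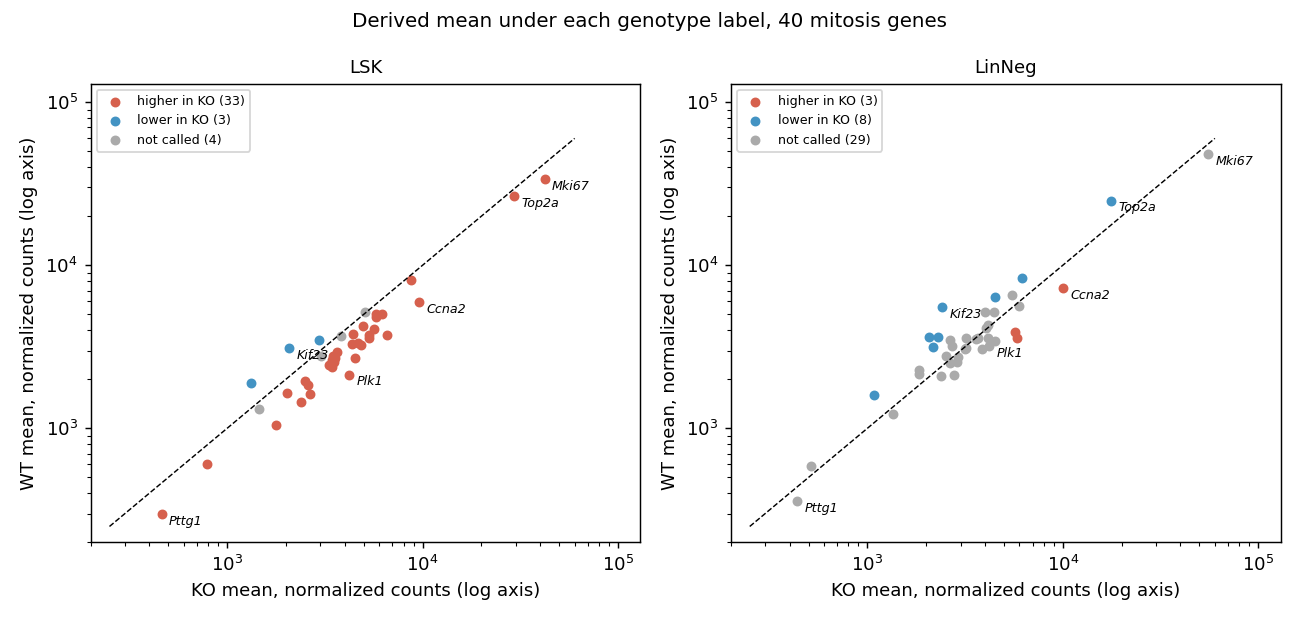
Derived mean normalized count under the KO and WT labels for each of the 40 mitosis genes, in LSK and in LinNeg, on log axes with a dashed line of equality and colours for calls. In LSK most genes have the higher mean in KO, and in LinNeg they lie on both sides of equality, with Kif23 at 2408 in KO and 5571 in WT.

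Between genes, levels were compared per kilobase of exon, from GENCODE M21 on build mm10. The mean normalized count per kilobase ran from 142 in Cdc25c to 3772 in Mki67 in LSK, with a median of 636, and from 112 to 5132 for the same genes in LinNeg, with a median of 622. Top2a was at 3091 per kilobase in LSK and 2361 in LinNeg, and Cdc20 at 2374 and 2578. The members lie on 16 chromosomes, and their longest coding transcripts have from 4 exons in Birc5 to 46 in Cenpe, with a median of 15. Exons of another annotated gene overlap 13 members, namely Ccna2, Cdc25b, Cdc25c, Plk1, Cdca8, Kif20a, Kif4, Kif22, Nusap1, Prc1, Cdc20, Ube2c and Top2a. Their partners include Exosc9 at Ccna2, Cdc23 at Kif20a, Oip5 at Nusap1 and Elovl1 at Cdc20. Whether counting used strand is not stated, so reads of overlapping genes may be mixed in those values. Ccnb1, Ccnb2, Kif22 and Kif4 have annotated pseudogene copies that could take some of their reads; Kif4-ps was listed at 0 in both tables.

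The log2 fold change was higher in LSK than in LinNeg for 19 members and lower for none, by the difference of the log2 fold changes, LSK minus LinNeg, with a two-sided normal test adjusted over 17397 genes. Over all genes 15.5% were called with the larger value in LSK and 12.8% with the smaller. The difference was above 0 for 40 of 40 members, with a median of 0.44, beside a median of -0.02 over all genes. With each table measured from its own median gene, 23 members were called with the larger value in LSK and again none with the smaller. Only the LSK groups carry the label BMT, so cell population and that label cannot be told apart in this difference.

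Ube2c differed most, by 1.03 (SE 0.20, adjusted p = 1.65e-06), from the LSK rise and LinNeg value given above. Ect2 followed at 0.86 (adjusted p = 7.37e-05), Aurkb at 0.81 (adjusted p = 0.000127), Nuf2 at 0.79 (adjusted p = 0.00032) and Cenpe at 0.74 (adjusted p = 0.000671). Kinetochore genes were called most often, 4 of 5, and chromosomal passengers in 3 of 4. The smallest differences were those of Cdc25b, at 0.02 (95% interval -0.31 to 0.35), and Cdc20, at 0.03 (-0.39 to 0.45). Ccnb1 had 0.11 (-0.31 to 0.53) and Mki67 had 0.11 (-0.30 to 0.51). These intervals still include differences of 0.35 or more, so equal effects are not shown.

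Calls in both populations were few. Ccna2, Ccnb1 and Cdc20 were higher in both, 3 of 40 members, where 14.1% of genes tested in both tables were. Cdc25b, Kif23 and Nusap1 were lower in both, 3 of 40, beside 12.2% of genes tested in both. Across the 40 members the log2 fold changes of the 2 populations had a Pearson r of 0.80 and a Spearman rho of 0.75, as against 0.28 and 0.34 over 15735 genes. This is across genes, which are not independent replicates, and the points share the libraries of each table. The order of the members was therefore alike in both populations while the whole list lay lower in LinNeg: the LSK value lay above the LinNeg 95% interval for 23 members and within it for 17.

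**Figure D4:**
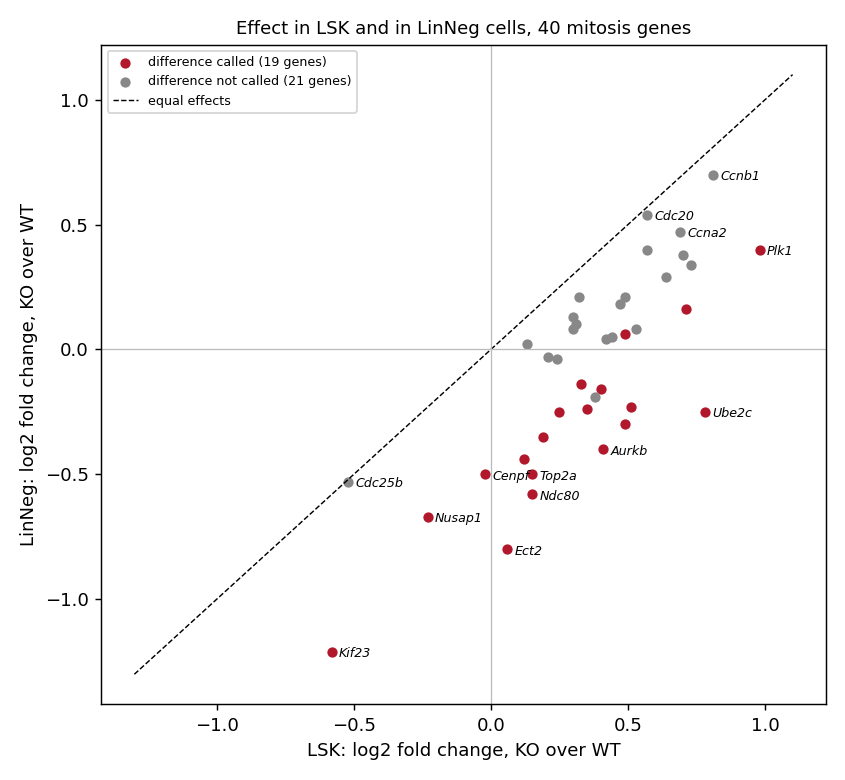
Log2 fold change of KO over WT in LSK against that in LinNeg for the 40 mitosis genes, with the line of equal effects; red points are the 19 genes whose difference is called. All 40 points lie on the LSK side of the line, with Kif23 lowest in both and Ccnb1 and Plk1 among the highest.

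Other genes of mitosis are given from lists written for this comparison, with the difference LSK minus LinNeg read against the 15.5% of all genes called higher. Their counts in LSK stand beside 40.8% of genes with means of 100 or more called higher and 36.4% lower. Those in LinNeg stand beside 24.9% and 26.8%. Of 17 genes of the anaphase-promoting complex 12 rose and 0 fell in LSK (median 0.20), and 1 rose and 1 fell in LinNeg (median 0.06) in the authors' deposited tables. The difference was called higher for 3 of the 17 and lower for 0. The APC scaffold gene Anapc1 rose by 0.37 (adjusted p = 1.39e-17) in LSK and by 0.63 (adjusted p = 0.00191) in LinNeg in the authors' deposited tables. Ube2s, which extends the ubiquitin chains that Ube2c starts, rose by 0.56 in LSK and had 0.08 in LinNeg, and Anapc15 rose by 0.72 in LSK and had 0.48 in LinNeg, in the authors' deposited tables. Fzr1, the activator that follows Cdc20, had 0.06 in LSK and fell in LinNeg, at -0.49 (adjusted p = 0.00661), in the authors' deposited tables.

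Of 20 condensin and cohesin genes 14 rose and 2 fell in LSK, and 2 rose and 4 fell in LinNeg, with 4 called higher and 0 lower for the difference. Smc2, a core ATPase of condensin, had 11256 in KO and 6788 in WT in LSK, a rise of 0.73, and it had 0.37 without a call in LinNeg in the authors' deposited tables. Ncapg2 of condensin II rose by 0.67 in LSK and 0.45 in LinNeg, and Wapl, which releases cohesin, by 0.71 and 0.50, in the authors' deposited tables. The cohesin genes Rad21 and Stag2 fell in LinNeg, at -0.54 and -0.46, and had 0.13 (called) and -0.07 (not called) in LSK, in the authors' deposited tables.

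Of 33 other kinetochore and centromere genes 25 rose and 2 fell in LSK (median 0.43), and 6 rose and 3 fell in LinNeg (median 0.08), in the authors' deposited tables. The difference was called higher for 5 of the 33 and lower for 0. Knl1, the platform for checkpoint proteins, had 9079 in KO and 5468 in WT in LSK, and 5300 in KO and 5362 in WT in LinNeg. Its log2 fold changes were 0.73 (adjusted p = 3.30e-38) in LSK and -0.02 (adjusted p = 0.95) in LinNeg in the authors' deposited tables, a difference of 0.75 (adjusted p = 0.000244). Zwilch and Zwint, which bring dynein and the checkpoint to kinetochores, rose in both populations, Zwilch by 0.77 and 0.69 and Zwint by 0.58 and 0.57 in the authors' deposited tables. Mis18a, which licenses new centromeric histone, rose by 0.33 in LSK and fell in LinNeg, at -0.88 (adjusted p = 5.56e-06), in the authors' deposited tables. Pmf1, another kinetochore gene, rose by 0.64 in LSK and had 0.38 in LinNeg in the authors' deposited tables.

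Of 36 other spindle and centrosome genes 24 rose and 4 fell in LSK, and 3 rose and 6 fell in LinNeg, with 14 called higher and 0 lower for the difference. The 3 genes with the smallest LinNeg p act at the midbody and central spindle. Cep55, which recruits the abscission machinery, had 799 in KO and 1450 in WT in LSK, and 351 in KO and 1311 in WT in LinNeg. It fell in both, at -0.86 (SE 0.12, adjusted p = 1.56e-12) and -1.90 (SE 0.19, adjusted p = 9.29e-23), in the authors' deposited tables. Racgap1, the partner of Kif23 in centralspindlin, had 3358 in KO and 3361 in WT in LSK, and 2835 in KO and 5334 in WT in LinNeg, where it fell, at -0.91 (SE 0.17, adjusted p = 2.79e-07), in the authors' deposited table. Kif20b, a midzone motor, rose by 0.28 in LSK and fell in LinNeg, at -0.82 (adjusted p = 1.82e-07), in the authors' deposited tables. In LSK the smallest p belonged to Numa1, which tethers microtubules at the poles and fell, at -0.66, to the centriole kinase Plk4, which rose by 0.59, and to Gtse1, which rose by 0.76, in the authors' deposited table.

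Of 16 other regulators of mitotic entry 7 rose and 1 fell in LSK, and 1 rose and 2 fell in LinNeg, with 5 called higher and 0 lower for the difference. The 7 rises in LSK lie near the 40.8% of genes with means of 100 or more called higher there. Cks2, a small subunit of CDK1 complexes, had 2332 in KO and 1219 in WT in LSK, and 1698 in KO and 2009 in WT in LinNeg. It rose by 0.94 (adjusted p = 1.96e-25) in LSK and had -0.24 (adjusted p = 0.343) in LinNeg in the authors' deposited tables. Cdca3, which has WEE1 degraded, rose by 0.89 in LSK and had 0.25 in LinNeg in the authors' deposited tables. The phosphatase gene Cdc25a rose in both, to 4064 in KO against 2792 in WT in LSK (adjusted p = 1.81e-23 in the authors' deposited table), and to 4301 in KO against 2152 in WT in LinNeg (adjusted p = 6.38e-06). Arhgap11a, a brake on RhoA, and Cdca2, a phosphatase anchor on chromosomes, fell in LinNeg, at -0.92 and -0.69, and had 0.02 and 0.00 in LSK, in the authors' deposited tables.

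Among 14 genes for transcription factors of the mitotic programme 6 rose and 3 fell in LSK, and 2 rose and 4 fell in LinNeg, with 4 called higher and 0 lower for the difference. The 6 rises in LSK and 4 falls in LinNeg lie near the 40.8% and 26.8% of genes with means of 100 or more. Foxm1, which drives G2 and M phase genes, had 2320 in KO and 2629 in WT in LSK, and 2289 in KO and 4557 in WT in LinNeg. It fell in both, at -0.18 (SE 0.062, adjusted p = 0.00662) in LSK and -0.99 (SE 0.13, adjusted p = 2.62e-12) in LinNeg in the authors' deposited tables, a difference of 0.81 (adjusted p = 5.66e-07). Mybl2, the B-Myb partner of MuvB, rose in both, by 1.17 and 1.13, and so did E2f4 of the DREAM complex, by 1.37 and 1.43, in the authors' deposited tables. Tfdp1, an E2F partner, rose by 0.69 in LSK and had 0.24 in LinNeg in the authors' deposited tables. Nfya, a subunit of the factor that binds the CCAAT box, fell in both, at -0.64 and -0.80, in the authors' deposited tables.

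Most genes of S phase rose in both populations. Of 40 listed 32 rose and 1 fell in LSK (median 0.42), and 27 rose and 0 fell in LinNeg (median 0.57), in the authors' deposited tables, while 1 was called higher and 3 lower for the difference LSK minus LinNeg. Ccne1, cyclin E1, which starts S phase, had 2314 in KO and 396 in WT in LSK, and 4660 in KO and 879 in WT in LinNeg, rises of 2.55 and 2.41 in the authors' deposited tables. The ribonucleotide reductase gene Rrm2 rose by 1.51 and 1.29, the loading factor gene Cdc6 by 1.23 and 0.97, and the origin gene Orc1 by 1.18 and 1.76, in the authors' deposited tables. Chaf1b, a histone chaperone subunit, had 0.10 without a call in LSK and rose by 1.31 in LinNeg in the authors' deposited tables.

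Of 8 CDK inhibitors 2 rose and 4 fell in each population, with 3 called higher and 1 lower for the difference. The LSK rises were those of Cdkn2a and Cdkn2b, at very low counts, with overall means of 10.2 and 2.98 there. Cdkn2b, with a mean of 29.5, was also 1 of the LinNeg rises, and Cdkn2a was among the differences called higher. Of all tested genes 32.4% rose and 29.2% fell in LSK, and 22.1% rose and 19.3% fell in LinNeg. Cdkn1b, which encodes p27, had 1386 in KO and 2139 in WT in LSK, and 2022 in KO and 4148 in WT in LinNeg. It fell in both, at -0.63 in LSK and -1.04 in LinNeg in the authors' deposited tables. Cdkn2d fell in both, at -0.67 and -1.81, and Cdkn2c in both, at -0.31 and -0.70, in the authors' deposited tables. Cdkn1c, which encodes p57 and is high in resting stem cells, had 26.3 in KO and 114 in WT in LSK, and 174 in KO and 54 in WT in LinNeg. It fell in LSK, at -2.11, and rose in LinNeg, by 1.69, in the authors' deposited tables. Cdkn1a, the p53 target that encodes p21, passed in neither, at -0.09 in LSK and 0.09 in LinNeg in the authors' deposited tables.

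**Figure D5:**
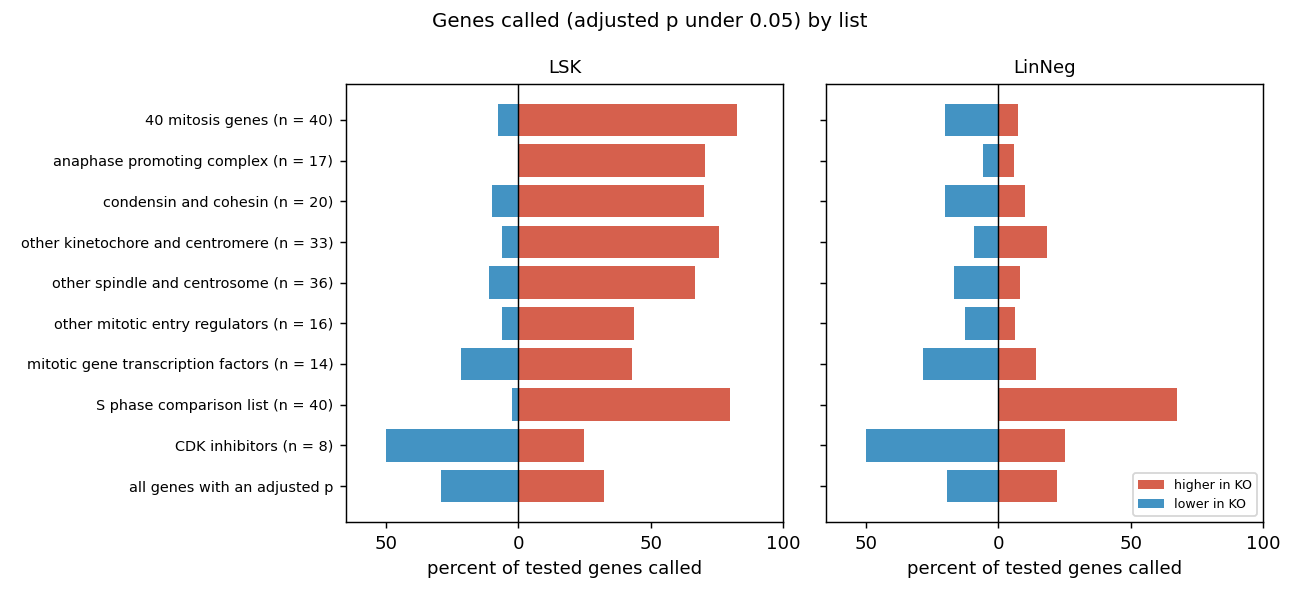
Percent of the tested genes of each list called higher (right of 0) or lower (left of 0) in KO, in LSK and in LinNeg, with all tested genes as the lowest bar. Of 40 mitosis genes 33 were higher in LSK and 3 in LinNeg, and of 40 S phase genes 32 were higher in LSK and 27 in LinNeg.

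Markers of other marrow cells moved with the genotype label, and differently in the 2 populations. Erythroid genes rose in both: 13 of 13 tested of 15 listed in LSK, with a summed mean of 179393 in KO and 34725 in WT, and 12 of 13 in LinNeg, with 144608 in KO and 28683 in WT. Of the erythroid genes Hbb-bt was listed at 0 in both tables and Hba-a1 in LinNeg. Neutrophil genes rose in LSK, 13 of 14, with a sum of 173102 in KO and 61334 in WT, while 8 of 13 fell in LinNeg, with 4960 in KO and 87857 in WT. Mpo alone made up most of the neutrophil sums in LSK and in LinNeg WT. It had 115072 in KO and 45742 in WT in LSK, and 1952 in KO and 58450 in WT in LinNeg. Monocyte and dendritic genes had 3 rises and 4 falls among 13 in LSK, summing to 10273 in KO and 11150 in WT, and 14 of 14 fell in LinNeg, with 9270 in KO and 96635 in WT. Megakaryocyte genes summed to 6786 in KO and 29143 in WT in LSK, where 10 of 11 fell, and to 10531 in KO and 34610 in WT in LinNeg, where 2 rose and 7 fell among 12. Stem cell genes summed to 10661 in KO and 48109 in WT in LSK, with 1 rise and 11 falls among 14, and to 5442 in KO and 6440 in WT in LinNeg, with 6 rises and 3 falls. The 6 genes that define LSK cells and their subsets summed to 24993 in KO and 72150 in WT in LSK, with 0 rises and 5 falls. In LinNeg they summed to 6747 in KO and 14265 in WT, with 1 rise and 3 falls. There Cd34, Flt3 and Cd48 fell, while Ly6a rose, with 2784 in KO and 605 in WT. Kit was not called in LinNeg, with 2114 in KO and 1644 in WT. Genes of the depleted lineages summed to 5742 in KO and 10872 in WT in LSK, with falls of Itgam and Ptprc among 9. In LinNeg they summed to 9758 in KO and 13848 in WT, with a fall of Itgam among 7. Ptprc alone made up most of these sums, so they describe that gene more than the lineages as a set. It had 4647 in KO and 9371 in WT in LSK, and 7444 in KO and 9636 in WT in LinNeg. The depleted-lineage gene Cd3e had 670 in KO and 62.7 in WT in LinNeg, but no p-value there, so it was not among the 7 tested. The neutrophil marker Ly6g was near 0, with 3.07 in KO and 0.172 in WT in LSK and 1.2 in KO and 0.363 in WT in LinNeg. The part of these shifts in the values of the mitosis genes was not tested.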

How the data were processed

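RNA was measured in 12 libraries, 3 in each of 4 groups taken from the labels. The submitters' processing notes name build mm10 and, in no stated order, StringTie, HISAT2, DESeq2 and SAMtools 1.10; which program counted reads is not given in the sources used here, nor is its annotation. The authors deposited 1 table of KO against WT for each population. Its columns, per the file headers, are a mean of normalized counts (a signal on a linear scale), a log2 fold change, its standard error on the log2 scale, a Wald statistic (a score), a p-value and an adjusted p-value from DESeq2, run by the authors. Counts per library were not used here, so the tests planned on counts could not be applied, and the authors' adjusted p under 0.05 served as the call. Left out of each were 5 rows that name no gene, which hold 27.2% of the total in LSK and 38.7% in LinNeg, and 4 rows with a repeated symbol. The product of Wald statistic and standard error was used as the log2 fold change, since the deposited one is rounded; they differed by at most 0.005. Means under each label assume 3 libraries a side. The difference LSK minus LinNeg was divided by its standard error (from both tables' squared standard errors added) and tested two-sided against the normal distribution, with Benjamini-Hochberg adjustment over 17397 genes. This test and the recentred tests were tested on simulated data. Named were U2af1 and every member (in full, for each role, the one with the smallest p in each table). Also named were the genes of smallest p in each table, up to 3 per other pathway list and up to 2 per marker list. Cdkn1a, Cdkn2a, Cdkn2b, Cd3e, Ly6a, Ly6g, Tubg1, Wee1, the augmin genes, the Y-linked gene and Xist were added after their values were seen. The members and lists were chosen with earlier results of these data known. Computations used scipy 1.17.1, numpy 2.4.6, pandas 2.3.3 and matplotlib 3.10.9 under Python 3.11.15.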

Additional observations from a re-analysis of the deposited data

Results flagged for a closer look

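The effect of the KO label on 19 mitosis genes differed between the populations, by the test of the difference itself, adjusted over all genes. Population goes together with the label BMT, which only the LSK groups carry, and the 2 cannot be told apart. Each log2 fold change was higher in LSK than in LinNeg, by the following amounts on the log2 scale. Ube2c, Ect2 and Aurkb differed by 1.03, 0.86 and 0.81. Nuf2, Cenpe, Ndc80 and Cenpf of the kinetochore differed by 0.79, 0.74, 0.73 and 0.47. Top2a differed by 0.65, and the kinesin genes Kif23, Kif2c and Kif11 by 0.63, 0.59 and 0.56. Plk1 differed by 0.58, Ccnb2 by 0.56, Birc5 and Bub1b by 0.54 each, Incenp by 0.50 and Cdk1 by 0.48. Anln and Nusap1 differed by 0.44 each. Marker genes of neutrophils, monocytes and dendritic cells also moved differently in the 2 populations, with the sums given above, and their part in these differences was not tested.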

How the results depend on the processing

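No paired analysis was possible because the tables hold the authors' comparisons with no values per library; leaving out replicates and another normalization were not run for the same reason. Requiring an absolute log2 fold change of at least 0.5 left 12 members called higher in LSK and 5 called lower in LinNeg. At an adjusted p under 0.01, 1 member was called higher in LinNeg, and 10 differences were called higher in LSK. Recentred on the median gene of LinNeg, 1 member was called higher (Ccnb1) and 12 lower, the added ones being Aurkb, Bub1b, Nuf2 and Ube2c. The same shift reversed the sign of 8 members not called in LinNeg, Cdca8 at -0.11, Mad2l1 at -0.08, Ttk at -0.02, Cenpa at -0.14, Kif4 at -0.06, Kif22 at -0.12, Tpx2 at -0.08 and Anln at -0.10. It follows from the recentring, which lowers every LinNeg value by the same amount. Recentred on the median of genes with a mean of at least 100, every LinNeg call was as before, and LSK lost Kif11 and Top2a under either recentring. Dropping the authors' filter on low counts changed no member's call, and testing only genes with a mean of at least 100 added Aurkb (adjusted p = 0.0458) to the 8 lower in LinNeg. The limits are the unknown depth, the unknown spread between single libraries and the wide LinNeg intervals.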

Other observations

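Several genes of the last steps of division, drawn from the members and the other lists after their values were seen, and so with no test as a group, fell in LinNeg. Kif23, Racgap1, Ect2, Cep55 and Kif20b act at the central spindle, the furrow or the midbody. In the authors' deposited table for LinNeg they had -1.21, -0.91, -0.80, -1.90 and -0.82, each called, and in the one for LSK -0.58, -0.00, 0.06, -0.86 and 0.28, of which Kif23, Cep55 and Kif20b were called. Other genes of the same steps did not share this, since Anln had 0.06, Prc1 -0.03 and Kif20a 0.40 in the authors' deposited table for LinNeg, none of them called.

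Genes that nucleate spindle microtubules were also picked after their values were seen and have no test as a group. Tubg1, gamma-tubulin, had 1498 in KO and 964 in WT in LSK, and 1846 in KO and 987 in WT in LinNeg. It rose by 0.64 (adjusted p = 1.14e-13) in LSK and by 0.90 (adjusted p = 8.88e-05) in LinNeg in the authors' deposited tables. Of the augmin genes, whose complex branches microtubules from existing ones, Haus1 rose by 0.42 in LSK and 0.77 in LinNeg and Haus6 by 0.34 and 0.40, in the authors' deposited tables. In LSK Haus2, Haus4, Haus5, Haus7 and Haus8 rose as well, by 0.36, 0.31, 0.36, 0.27 and 0.39 in the authors' deposited table. Haus3 fell in LSK, at -0.46 (adjusted p = 6.73e-07 in the authors' deposited table). Of all genes with means of 100 or more, 40.8% were called higher in LSK and 24.9% in LinNeg. The other 6 augmin genes were not called in LinNeg, where the authors' deposited table gave 0.43 for Haus2, -0.19 for Haus3, -0.21 for Haus4, 0.12 for Haus5, 0.08 for Haus7 and -0.07 for Haus8. Wee1, the kinase that Cdc25 phosphatases oppose, had 3640 in KO and 5247 in WT in LSK, and fell there, at -0.53 (adjusted p = 5.72e-18 in the authors' deposited table), beside the fall of Cdc25b. In LinNeg Wee1 had 1986 in KO and 2391 in WT and did not pass (adjusted p = 0.191 in the authors' deposited table).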
